A study of Capra hircus with 9 samples.

Results

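Tripartite motif (TRIM) genes were followed in goat uterus on 3 days around implantation. The family was chosen with earlier results of these data known. Its members were taken by symbol alone, as the rows of the deposited count table named TRIM followed by a number. That gave 52 of the 25671 rows, of which the table's own description calls 51 a tripartite motif protein and the remaining row, TRIM11, a TRIM ligase. All 52 symbols were matched in the RefSeq goat gene table. The rows for TRIM11 and TRIM16 are described as like those genes in other species. Enough reads for a test were found in 37 members, and the other 15 are given below as not measured or too low to test.

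The samples were poly(A) RNA from Liaoning Cashmere goats, a fibre breed, sequenced on an Ion Proton instrument, with 3 libraries each for days 6, 16 and 19. All 9 samples are labelled as peri-implantation uterus, and no treatment or genotype is given for any of them. The design text words the days as ages, and the event that day counting starts from and the goats' pregnancy status are not stated. The labels also disagree on the material: the tissue field names uterus, the title endometrial epithelium, and the collection note testis. Of the testis germ cell markers examined, SYCP3 and TNP1 were at 0 in every library and the summed level of the list stayed at or below 1.98 CPM (counts scaled to a common library size). Smooth muscle markers summed to between 7445 and 36130 CPM and epithelial markers to between 702 and 1274 CPM in the 9 libraries. Whether the libraries of a day are separate animals is not stated; the spread behind each p-value is that between libraries and may be technical. In such bulk RNA, fewer cells of a type and less RNA per cell cannot be told apart.

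TRIM proteins are defined by a RING finger, B-boxes and a coiled coil at their amino-terminal end, and most act as E3 ubiquitin ligases, which choose the proteins that ubiquitin is attached to. Their carboxy-terminal domains differ and set the partner they bind: a PRY-SPRY domain in many antiviral members, NHL repeats, a COS box that binds microtubules, or a PHD finger with a bromodomain in the nuclear members. In human and mouse cells a part of the family acts on RNA and DNA sensors, on the kinases below them, or directly on viruses, and several of those genes are themselves switched on by interferon. In ruminants the elongating conceptus secretes interferon tau, a type I interferon, and the uterus around implantation is known for a strong interferon response. The roles given below come chiefly from work in human or mouse.

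Library totals ran between 8712751 and 11074693 counts. Replicate 1 of day 19 stood apart from its group: across genes its Spearman correlation with the other day 19 libraries was 0.894 and 0.897, against 0.983 between those libraries and 0.973 to 0.985 within the other days. Ribosomal protein genes took 2.42% of its counts, and between 3.64% and 6.61% in the other 8 libraries. In that library 7 of the 37 tested members were at least 2-fold higher and 2 at least 2-fold lower than the mean of the other day 19 replicates, which is 24.3% of members, against 31.3% of all tested genes. It was closer across genes to the day 16 libraries (0.945 to 0.963) than to its own day. Day 19 values are therefore mostly given both with and without that library. All values below are CPM after TMM scaling, in the order of replicates 1, 2 and 3, and tests are edgeR's quasi-likelihood test with Benjamini-Hochberg adjustment over the 16098 genes tested. CPM is not corrected for transcript length, so levels are compared between days and not between genes.

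The antiviral and interferon-pathway group was set with earlier results of these data known. Its counts and medians depend on which members were placed in it. Among its members, 3 of the 8 tested, TRIM21, TRIM26 and TRIM38, rose on day 16 over day 6, and none fell. Over all tested genes, 5.12% rose and 3.74% fell in this comparison. The median log2 fold change of the 8 was 1.23, beside 0 over all genes. The same 3 genes passed on day 19 over day 6, where 12.7% of all genes rose and 10.2% fell and the median of the 8 was 0.70, beside 0.02 over all genes. Without replicate 1 of day 19 the 3 passed again, TRIM56 was called lower, and the median of the 8 on day 19 over day 6 was 0.25, beside -0.002 over all genes. Both comparisons use the same day 6 libraries. Summed over the group, the level lay between 189.5 and 215.3 CPM in the day 6 libraries, 364.7 and 660.3 CPM on day 16, and 397.4 and 699.5 CPM on day 19.

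TRIM21 is a cytosolic receptor for the constant part of antibodies and directs antibody-coated virus to the proteasome. It had 48.6, 32.6 and 38.3 CPM on day 6, 119, 222 and 86.7 CPM on day 16 and 263, 131 and 136 CPM on day 19. Every later library was above every day 6 library, and the day 16 and day 19 groups overlapped. Its mean was 142 ± 70.5 CPM on day 16 against 39.9 ± 8.11 CPM on day 6 (SD, n = 3 each), 3.57-fold higher (log2 1.84, SE 0.39, edgeR adjusted p = 0.0191). On day 19 it was 4.42-fold above day 6 (log2 2.15, SE 0.40, edgeR adjusted p = 0.00539), and 3.37-fold without replicate 1 of day 19.

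TRIM38, a ligase that in human and mouse cells both sustains RNA and DNA sensors and restrains Toll-like receptor and NF-kB signalling, had 38.8, 32.0 and 38.8 CPM on day 6, 94.8, 119 and 60.8 CPM on day 16 and 140.2, 129 and 134 CPM on day 19. The day 19 libraries lay close together and above all others, and the day 16 libraries lay between them and day 6. It was 2.499-fold higher on day 16 than on day 6 (log2 1.32, SE 0.23, edgeR adjusted p = 0.00797) and 3.68-fold higher on day 19 than on day 6 (log2 1.88, SE 0.24, edgeR adjusted p = 0.00086), the second 3.64-fold without replicate 1 of day 19. Day 19 over day 16, 1.47-fold, did not pass (edgeR adjusted p = 0.179, and 0.0856 without that library).

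TRIM26, a ligase reported to act on the transcription factor IRF3, had 17.0, 12.4 and 14.7 CPM on day 6, 32.5, 41.9 and 22.7 CPM on day 16 and 46.1, 25.4 and 31.1 CPM on day 19. Every later library was above day 6. The change was 2.20-fold on day 16 (log2 1.14, SE 0.30, edgeR adjusted p = 0.0424) and 2.33-fold on day 19 (log2 1.22, SE 0.30, edgeR adjusted p = 0.0174), and 1.93-fold on day 19 without its replicate 1. The symbol's neighbours in the RefSeq table are TRIM31, TRIM40, TRIM10 and TRIM15, which with TRIM26 make 5 consecutive coding genes. Only TRIM31 and TRIM26 of the 5 had enough reads to test, and TRIM31 stayed between 0.195 and 2.51 CPM without passing in any comparison.

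The next antiviral members had separate groups on days 16 and 6 but missed the threshold. TRIM25, the ligase that activates the RNA sensor RIG-I and assists the antiviral protein ZAP, had 49.2, 48.9 and 49.2 CPM on day 6, 133, 172 and 108 CPM on day 16 and 163, 57.1 and 51.4 CPM on day 19. The day 6 libraries differed little, and every day 16 library was above them. On day 19 replicate 1 stood near the day 16 level, while replicates 2 and 3 stood just above day 6. The day 16 mean was 138 ± 32.6 CPM against 49.1 ± 0.178 CPM on day 6 (SD, n = 3 each), 2.80-fold (SE 0.41 on the log2 scale, edgeR adjusted p = 0.054). Without replicate 1 of day 19, which bears on this comparison because the 3 days share a spread estimate, the same 2.80-fold difference passed with an edgeR adjusted p of 0.000314. It also passed without replicate 2 or replicate 3 of day 19 (edgeR adjusted p = 0.0435 and 0.0358) and with DESeq2 (adjusted p = 0.0056). It passed in 6 of 18 alternatives in all, with an adjusted p of up to 0.181.

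TRIM56, an interferon-induced restriction factor that binds RNA, had 9.19, 8.75 and 11.3 CPM on day 6, 23.1, 35.1 and 17.7 CPM on day 16 and 25.9, 3.00 and 4.87 CPM on day 19. Its day 16 libraries were all above day 6, and its day 19 libraries split to either side of day 6. Day 16 over day 6 was 2.59-fold with an edgeR adjusted p of 0.288, and 0.00735 without replicate 1 of day 19. Day 19 over day 6 was 0.21 on the log2 scale (edgeR adjusted p = 0.838) with that library and -1.30 without it (edgeR adjusted p = 0.0098). The sign was also negative with limma voom on all 9 libraries.

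TRIM14, an adaptor that in human cells helps RNA sensing at mitochondria, had 20.5, 19.98 and 16.8 CPM on day 6, 24.2, 29.7 and 27.0 CPM on day 16 and 33.1, 25.3 and 23.0 CPM on day 19. Its day 16 and day 19 libraries were all above day 6. Its 1.41-fold difference on day 16 did not pass (edgeR adjusted p = 0.185, and 0.0374 without replicate 1 of day 19), nor did the 1.42-fold difference on day 19 (edgeR adjusted p = 0.097, and 0.0924 without that library). TRIM65, a ligase of the RNA sensor MDA5, had 30.1, 33.8 and 30.6 CPM on day 6, 34.1, 39.6 and 41.6 CPM on day 16 and 26.9, 26.1 and 27.4 CPM on day 19. Its day 19 libraries were the lowest and its day 16 libraries the highest, with no overlap. The log2 difference of -0.52 between day 19 and day 16 had an edgeR adjusted p of 0.111, and 0.0154 without replicate 1 of day 19. TRIM6, which supports signalling through the kinase IKKe, was low, at 1.95, 1.03 and 0.780 CPM on day 6, 2.21, 1.37 and 0.631 CPM on day 16 and 0.971, 0.300 and 0.740 CPM on day 19, and its groups overlapped. TRIM69, an interferon-induced member, had 5 counts in all, from 2 libraries, and was not measured.

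**Figure D1:**
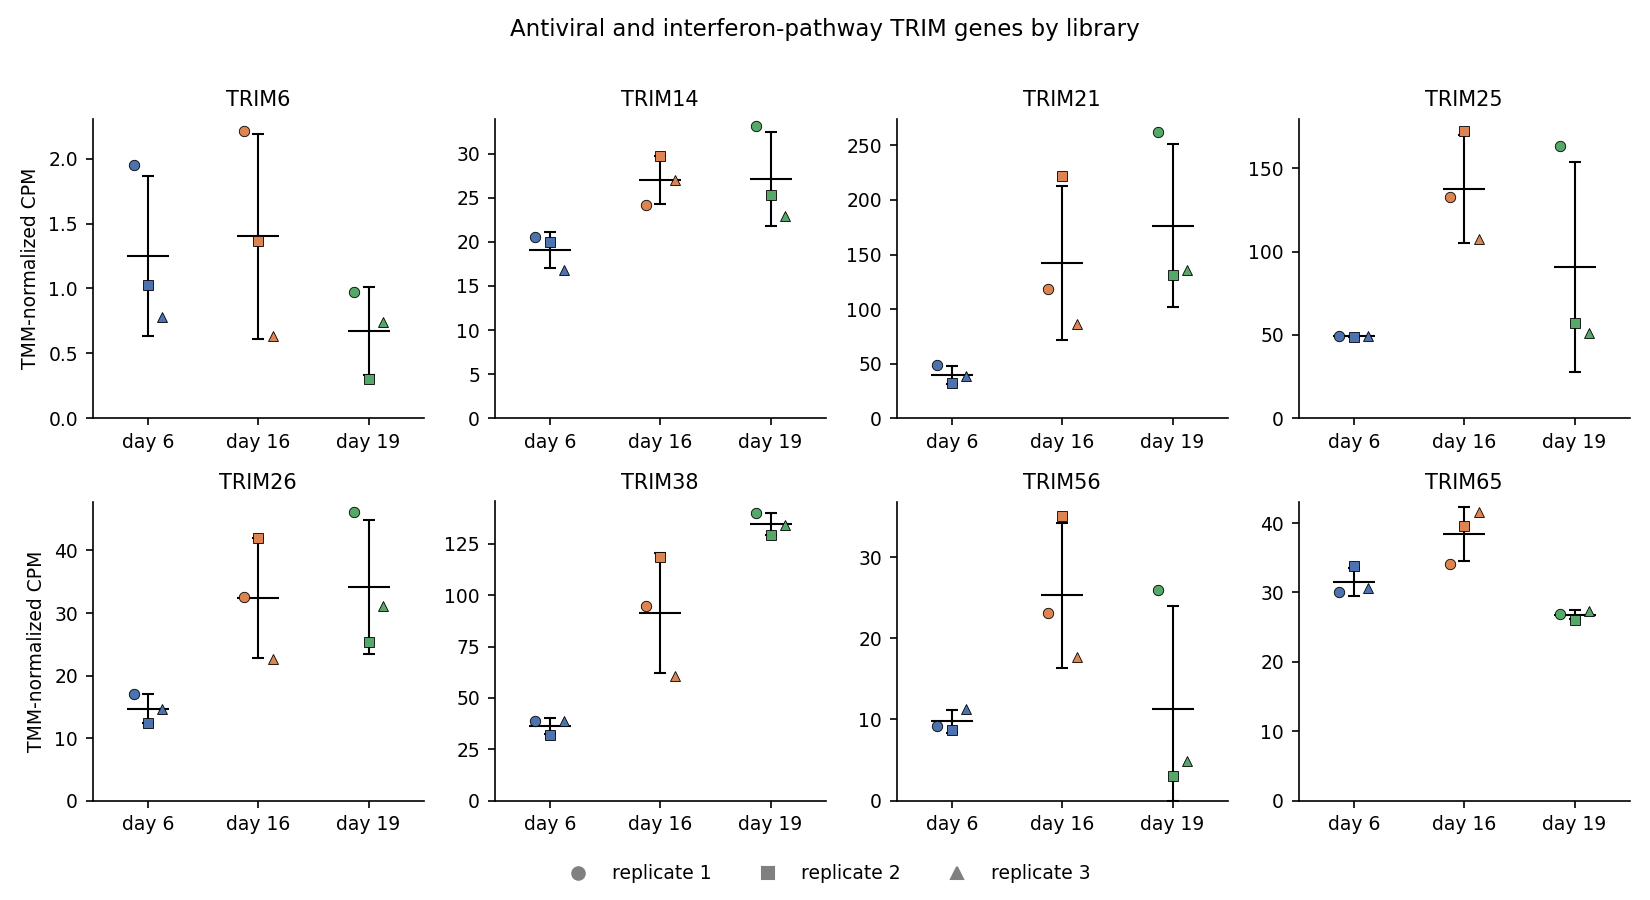
TMM-normalized CPM (linear axis from 0) of the 8 tested antiviral and interferon-pathway TRIM genes in each library, by day. Points are libraries, marked by replicate number, with the mean and SD of the 3 libraries of a day (bars are cut at 0). The day 6 points of TRIM14, TRIM21, TRIM25, TRIM26, TRIM38, TRIM56 and TRIM65 lie below all their day 16 points, as in 19.9% of all tested genes. Replicate 1 of day 19 lies above the other day 19 points in 7 of the 8 panels, as in 43.9% of all tested genes.

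Most of these genes ordered the day 16 libraries alike. Of the 8 tested, 5 (TRIM21, TRIM25, TRIM26, TRIM38 and TRIM56) were highest in replicate 2 and lowest in replicate 3. That order was also seen in 3 of the other 29 tested members and in 17.4% of all tested genes. It was picked after the values were seen, and what sets it was not tested. A list of interferon-stimulated genes had the same order in all 34 of its tested members. Its summed level was 1166, 925.7 and 1041 CPM on day 6, 12730, 20690 and 8055 CPM on day 16 and 28450, 22980 and 19660 CPM on day 19. On day 16 over day 6, 31 of the 34 passed upward with a median log2 fold change of 4.05. On day 19 over day 6 all 34 passed, also without replicate 1 of day 19. Of this list, OAS2 had 9, 3 and 11 counts on day 6 and ISG20 had 3, 4 and 0. Both entered the test through the later days. IRF9, a transcription factor of the interferon response, was 5.41-fold higher on day 16 than on day 6, the ubiquitin-like modifier ISG15 207-fold and the antiviral GTPase MX1 39.5-fold (edgeR adjusted p = 0.000907, 0.00015 and 0.000211).

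Some leukocyte markers also differed between the days. The macrophage markers summed to 166 to 299 CPM on day 6, 250 to 327 CPM on day 16 and 427 to 603 CPM on day 19, and none of their 5 rows was at 0 in all libraries. On day 16 their sum was highest in replicate 2 and lowest in replicate 3, as was that of the antiviral group. On day 19 it was 427, 603 and 511 CPM, lowest in replicate 1, while the antiviral group summed to 699.5, 397.4 and 408.6 CPM, highest there. Of the 4 tested, CD14 rose on day 16, 2.64-fold, and CD14, CSF1R and AIF1 rose on day 19, 4.11-fold, 2.14-fold and 6.53-fold. Leaving out replicate 1 of day 19, these were 3.46-fold, 2.26-fold and 7.70-fold, and all 4 rose on day 19 over day 6. The T and NK lymphocyte markers summed to between 54.3 and 99.6 CPM in the 9 libraries, and none of 5 tested passed with all 9 libraries; without replicate 1 of day 19, CD3G was lower on day 19 than on day 6 (0.551-fold, edgeR adjusted p = 0.0316). The B and plasma cell markers summed to 26.6, 15.8 and 4.68 CPM on day 6, 289.9, 43.4 and 34.3 CPM on day 16 and 17.4, 23.5 and 11.5 CPM on day 19, highest in replicate 1 of day 16, and none of 3 tested passed. Of all genes, 5.12% rose on day 16 and 12.7% on day 19, relative to day 6. Without replicate 1 of day 19, 27.2% were higher and 27.0% lower on day 19 than on day 6. The part of such cells in the TRIM values was not tested.

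Outside the antiviral group, 3 of 29 tested members passed on day 16 over day 6 and 5 on day 19 over day 6, beside 8.86% and 22.9% of all genes called in either direction. TRIM36 rose, TRIM37 and TRIM62 fell on both days, and TRIM8 rose and TRIM2 fell on day 19. For TRIM8 and TRIM2 the difference between days 19 and 16 did not pass. TRIM37, a ligase of centrosomes and peroxisomes that is mutated in a human growth disorder, had 68.1, 78.2 and 81.5 CPM on day 6, 32.8, 27.9 and 35.9 CPM on day 16 and 24.0, 48.0 and 35.6 CPM on day 19. All later libraries were below day 6. It averaged 32.2 ± 4.02 CPM on day 16 against 75.9 ± 6.96 CPM on day 6 (SD, n = 3 each) and fell by 1.24 on the log2 scale (SE 0.25, edgeR adjusted p = 0.0137). On day 19 it fell by 1.08 relative to day 6 (SE 0.25, edgeR adjusted p = 0.0136), and by 0.85 without replicate 1 of day 19.

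TRIM62, studied in human breast epithelium as a regulator of cell polarity, had 10.8, 12.4 and 10.9 CPM on day 6, 6.53, 4.67 and 4.42 CPM on day 16 and 3.98, 4.19 and 2.86 CPM on day 19. Its later libraries all lay below day 6, with the lowest level on day 19. It fell by 1.12 on the log2 scale on day 16 (SE 0.27, edgeR adjusted p = 0.0301) and by 1.62 on day 19 (SE 0.27, edgeR adjusted p = 0.00347), or by 1.67 without replicate 1 of day 19.

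TRIM2, an NHL-repeat ligase known best from neurons, had 230.0, 260.4 and 227 CPM on day 6, 136, 185 and 189 CPM on day 16 and 103, 42.9 and 54.9 CPM on day 19. The 3 days did not overlap. Day 19 averaged 66.9 ± 31.7 CPM against 239 ± 18.4 CPM on day 6 (SD, n = 3 each) and fell by 1.84 on the log2 scale (SE 0.31, edgeR adjusted p = 0.00346), or by 2.28 without replicate 1 of day 19. The log2 difference was -0.49 on day 16 over day 6 (edgeR adjusted p = 0.425) and -1.35 on day 19 over day 16 (edgeR adjusted p = 0.0612, and 0.000112 without replicate 1 of day 19). The other NHL members tested, TRIM3 and TRIM32, did not pass, and TRIM71, the stem cell factor known as LIN41, was at 0.

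TRIM8, a ligase that in human cells acts on NF-kB signalling, went the other way, with 45.3, 43.9 and 51.6 CPM on day 6, 62.7, 75.5 and 64.5 CPM on day 16 and 78.2, 79.7 and 83.9 CPM on day 19. The 3 days did not overlap. It was 1.72-fold higher on day 19 than on day 6 (log2 0.78, SE 0.15, edgeR adjusted p = 0.00659), and 1.76-fold without replicate 1 of day 19. Day 16 over day 6 was 1.44-fold (edgeR adjusted p = 0.0628, and 0.0107 without that library). TRIM36, a COS-box ligase that binds microtubules, was low throughout, with 1.39, 2.57 and 1.27 CPM on day 6, 7.90, 3.87 and 6.94 CPM on day 16 and 7.58, 4.69 and 4.97 CPM on day 19. Every later library exceeded every day 6 library. It was 3.57-fold higher on day 16 (log2 1.84, SE 0.42, edgeR adjusted p = 0.0245) and 3.29-fold higher on day 19 (log2 1.72, SE 0.42, edgeR adjusted p = 0.0174), the second 2.79-fold without replicate 1 of day 19.

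**Figure D2:**
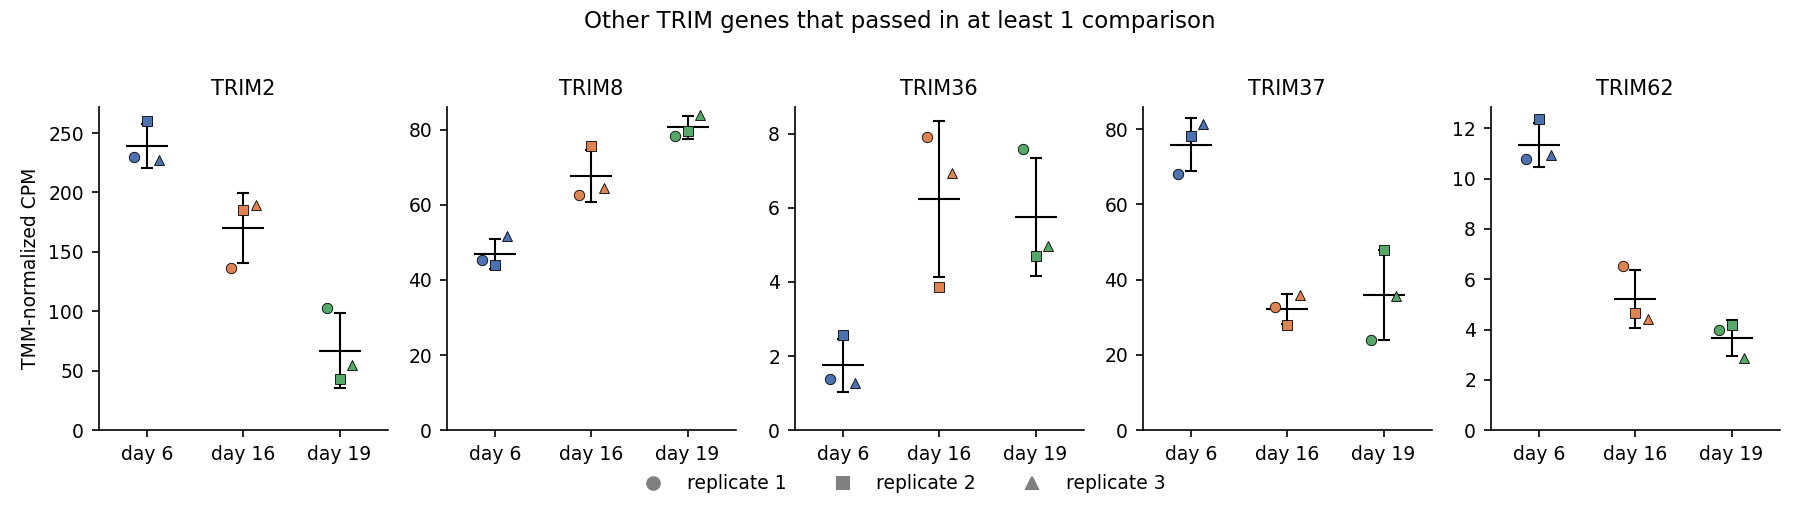
TMM-normalized CPM (linear axes from 0) of the 5 TRIM genes outside the antiviral group that passed in at least 1 comparison, by day. Points are libraries, marked by replicate number, with the mean and SD of the 3 libraries of a day. TRIM2, TRIM37 and TRIM62 are highest on day 6, and TRIM8 and TRIM36 are lowest there.

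Tissue markers also differed between the same days. The 6 fibroblast markers summed to 27210 to 29900 CPM on day 6, 15760 to 20160 CPM on day 16 and 16470 to 25440 CPM on day 19. None passed with all 9 libraries, and 2 were lower in each comparison with day 6 without replicate 1 of day 19. The 8 epithelial markers summed to 702 to 777 CPM on day 6, 1130 to 1184 CPM on day 16 and 785 to 1274 CPM on day 19; 1 rose and 1 fell on day 16, and 1 rose and 2 fell on day 19, relative to day 6. Without replicate 1 of day 19, 4 rose and 2 fell on day 16 and 5 rose and 2 fell on day 19. The 5 endothelial markers summed to 807 to 1002 CPM on day 6, 1068 to 1350 CPM on day 16 and 628 to 743 CPM on day 19; none passed with all 9 libraries, and without replicate 1 of day 19, 2 were higher on day 16 and 3 lower on day 19 than on day 6. The 8 smooth muscle markers summed to 7445 to 25670 CPM on day 6, 17040 to 18140 CPM on day 16 and 21400 to 36130 CPM on day 19, and 2 rose on day 19 over day 6. Of all genes, 5.12% rose and 3.74% fell on day 16 over day 6, and 12.7% and 10.2% on day 19 over day 6. Without replicate 1 of day 19 these shares were 10.7% and 9.67% on day 16 and 27.2% and 27.0% on day 19. The part of tissue make-up in the values of TRIM2, TRIM8, TRIM36, TRIM37 and TRIM62 was not tested.

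Across the whole family, 6 of 37 tested members passed on day 16 over day 6, 4 of them higher and 2 lower, and 9 had an unadjusted p below 0.05. The shares, 4 and 2 of 37, stand beside 5.12% and 3.74% of all tested genes. Groups did not overlap for 10 members with day 16 higher and 6 with day 16 lower, where all genes gave 19.9% and 18.8%. The median log2 fold change of the members was 0.10, beside 0 over all genes. On day 19 over day 6, 8 of 37 passed, 5 higher and 3 lower, beside 12.7% and 10.2% of all genes, and groups stood apart for 7 and 7 members, beside 19.6% and 18.9%. The median of the members was -0.13, beside 0.02 over all genes. The test for any difference among the 3 days called the same 8 members, 21.6% of the family, beside 19.6% of all genes, so the share of the family that changed was near that of all genes.

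**Figure D3:**
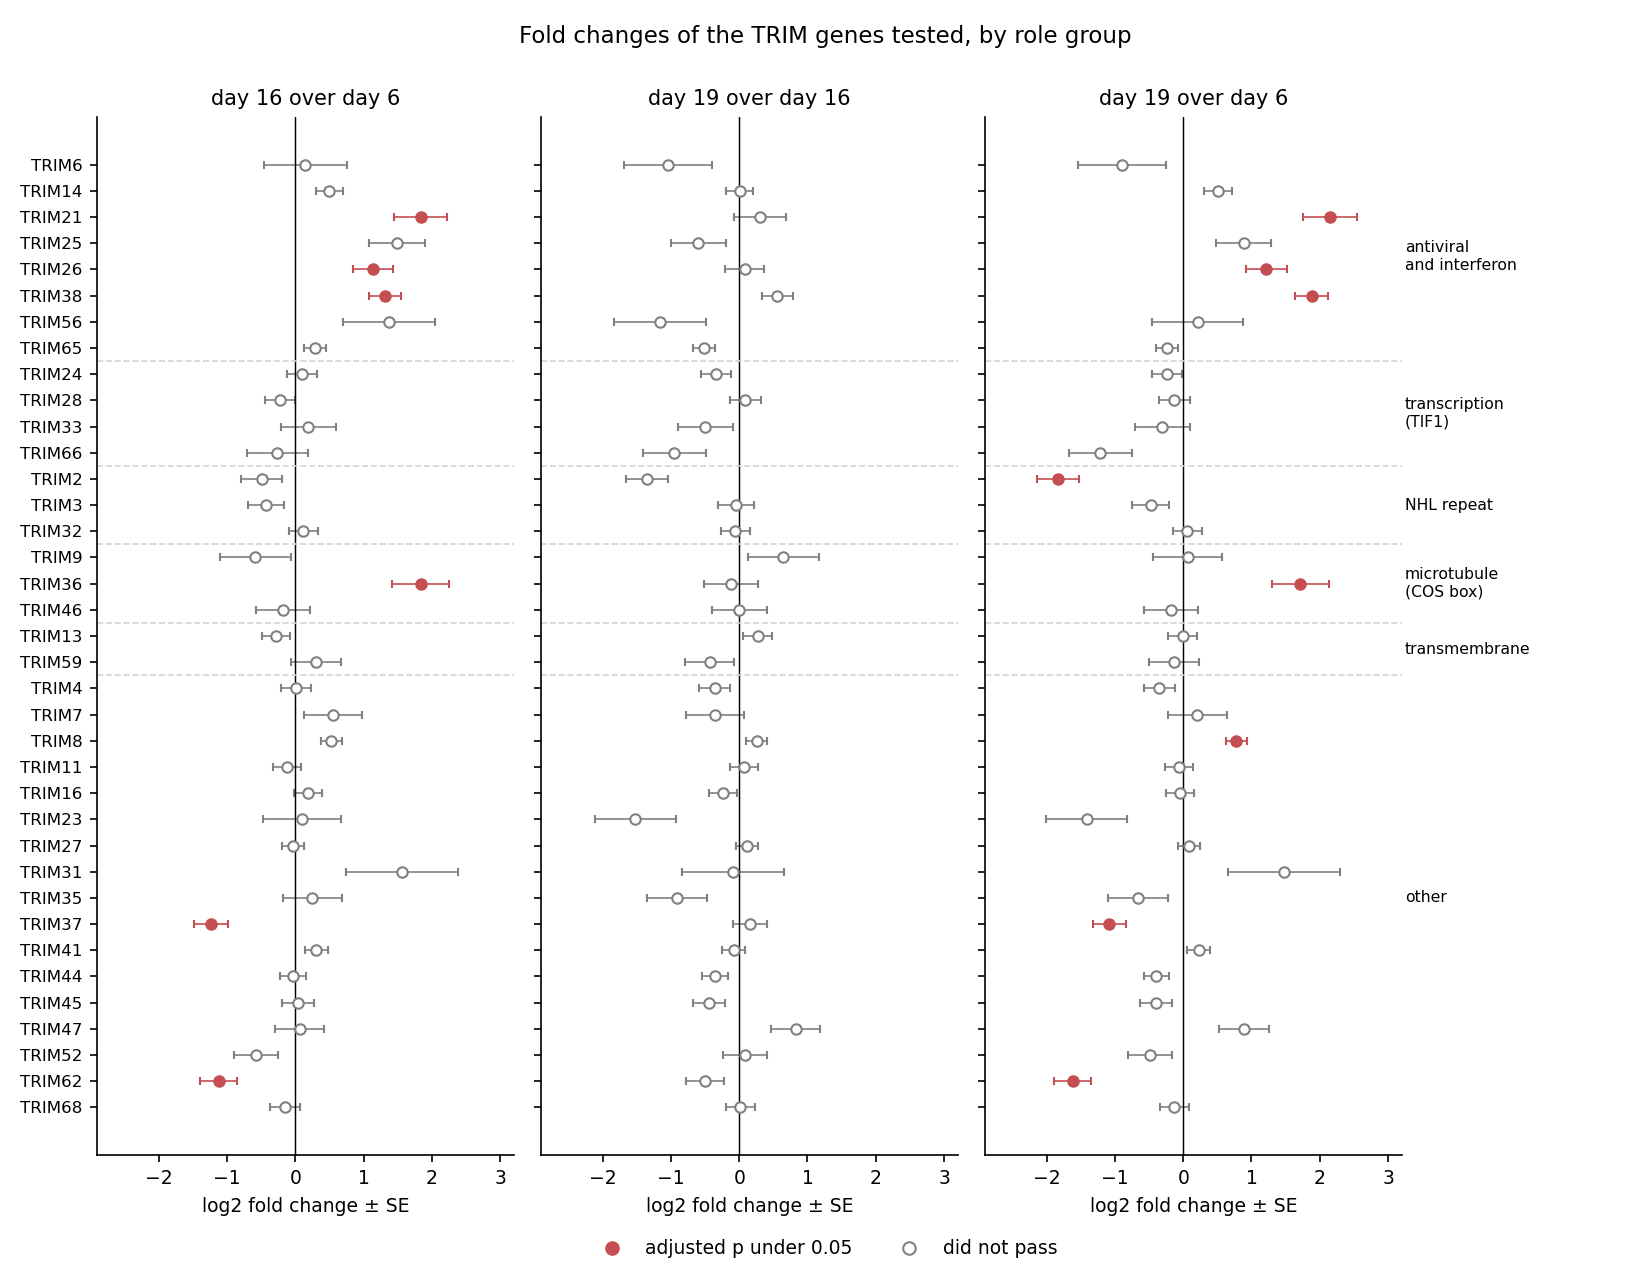
Log2 fold change with its SE for the 37 tested TRIM genes in 3 comparisons, grouped by role (dashed lines separate the groups). Filled red points have an edgeR adjusted p under 0.05: 6 on day 16 over day 6, none on day 19 over day 16 and 8 on day 19 over day 6.

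Single libraries mattered for the day 16 calls. The count of 6 fell to 2, 2 and 1 without replicate 1, 2 or 3 of day 6, and to 3 and 2 without replicate 1 or 2 of day 16; it was 4 without replicate 3 of day 16, and 10 without replicate 1 of day 19. All genes called went the same way: 5.07%, 4.84% and 4.05% without replicate 1, 2 or 3 of day 6, 4.71%, 4.64% and 6.37% without replicate 1, 2 or 3 of day 16, and 20.4% without replicate 1 of day 19, beside 8.86% with all libraries. TRIM38 passed in all 9 refits that left out 1 library. TRIM21 missed without replicate 1, 2 or 3 of day 6 or replicate 2 of day 16 (edgeR adjusted p = 0.0515, 0.0867, 0.0863 and 0.0639). TRIM37 missed without replicate 2 or 3 of day 6 or replicate 1 or 2 of day 16 (edgeR adjusted p = 0.0532, 0.0641, 0.0584 and 0.069). TRIM36 missed without replicate 1 or 3 of day 6 or replicate 1 or 3 of day 16 (edgeR adjusted p = 0.0972, 0.113, 0.0933 and 0.0727). TRIM62 missed without any 1 of the day 6 replicates or replicate 2 or 3 of day 16 (edgeR adjusted p = 0.0815, 0.121, 0.102, 0.125 and 0.113). TRIM26 missed without any 1 of the day 6 replicates, replicate 1 or 2 of day 16 or replicate 3 of day 19 (edgeR adjusted p = 0.0914, 0.161, 0.143, 0.115, 0.167 and 0.0559).

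Calls on day 19 over day 6 held better. TRIM2, TRIM8, TRIM21, TRIM38 and TRIM62 passed whichever library was left out. TRIM26 missed without replicate 2 or 3 of day 6 (edgeR adjusted p = 0.0709 and 0.0637), TRIM36 without replicate 1 or 3 of day 6 (edgeR adjusted p = 0.0699 and 0.0736), and TRIM37 without replicate 3 of day 6 (edgeR adjusted p = 0.0543). Members called numbered 7, 7 and 5 without replicate 1, 2 or 3 of day 6, where 13.5%, 12.8% and 11.8% of all genes were called, beside 22.9% with all libraries. No direction changed among the calls of either comparison when a library was left out.

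Between days 19 and 16 edgeR called no member, where 0.516% of all genes rose and 0.683% fell. Of the 37 members, 5 had an unadjusted p below 0.05, and DESeq2 called 2, TRIM2 and TRIM65, both lower on day 19. Groups stood apart for 3 members with day 19 higher and 5 with day 19 lower, beside 11.9% and 12% of all genes. Without replicate 1 of day 19 the picture differed: 12 of 38 tested members passed, TRIM47 higher on day 19 and 11 lower, while 21.6% of all genes rose and 23.1% fell. The 11 were TRIM2, TRIM4, TRIM23, TRIM24, TRIM25, TRIM33, TRIM35, TRIM56, TRIM59, TRIM65 and TRIM66. In the same fit 18 members passed on day 19 over day 6, 6 higher and 12 lower, beside 27.2% and 27.0% of all genes, and 10 passed on day 16 over day 6, 8 higher and 2 lower, beside 10.7% and 9.67%.

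The libraries behind those calls can be seen in single genes, which were chosen after their values were seen. TRIM23, which carries an ARF-like GTPase domain, had 15.4, 16.9 and 16.7 CPM on day 6, 16.6, 20.5 and 15.5 CPM on day 16 and 13.4, 1.70 and 3.17 CPM on day 19. Replicate 1 of day 19 kept near the earlier days, and replicates 2 and 3 were far below them. TRIM33, a nuclear regulator of SMAD4, had 68.0, 81.9 and 57.6 CPM on day 6, 88.4, 70.5 and 78.2 CPM on day 16 and 102, 33.6 and 32.1 CPM on day 19, again with replicate 1 of day 19 high and the others low. TRIM47, a ligase linked to proliferation in human tumours, had 26.6, 19.7 and 23.6 CPM on day 6, 29.7, 22.1 and 21.5 CPM on day 16 and 19.9, 48.4 and 61.5 CPM on day 19, the reverse arrangement. In TRIM56 and TRIM25 above, replicate 1 was also the highest on day 19. Replicates 2 and 3 lay below day 6 in TRIM56 and just above day 6 in TRIM25. Which of the day 19 libraries is typical of that day cannot be told apart with 3 libraries.

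The 4 nuclear members, TRIM24, TRIM28, TRIM33 and TRIM66, did not pass in any of the 3 comparisons with all 9 libraries. TRIM28, the corepressor KAP1 of KRAB zinc finger proteins, had 327, 354 and 317 CPM on day 6, 269, 269.9 and 317 CPM on day 16 and 210.2, 336 and 365 CPM on day 19, with log2 differences of -0.22 on day 16 and -0.13 on day 19 relative to day 6 (edgeR adjusted p = 0.68 and 0.693). The day 19 difference was 0.09 without replicate 1 of day 19 (edgeR adjusted p = 0.602), with the sign turned. TRIM66, a relative of TRIM28, had 13.2, 7.21 and 9.94 CPM on day 6, 6.32, 8.31 and 10.6 CPM on day 16 and 7.77, 2.40 and 2.86 CPM on day 19, a log2 difference of -1.22 on day 19 relative to day 6 (edgeR adjusted p = 0.0843, and 0.00154 without replicate 1 of day 19). TRIM13, which is anchored in the endoplasmic reticulum, had 14.2, 18.4 and 21.7 CPM on day 6, 14.4, 13.7 and 16.7 CPM on day 16 and 17.2, 18.2 and 18.6 CPM on day 19, with overlapping groups on days 16 and 6 (edgeR adjusted p = 0.535).

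In all, 15 of the 37 tested members were not called in any comparison under any setting that tested them: TRIM3, TRIM6, TRIM7, TRIM9, TRIM11, TRIM13, TRIM16, TRIM27, TRIM28, TRIM31, TRIM32, TRIM41, TRIM44, TRIM45 and TRIM46. Among them the ratio of the highest to the lowest library was 1.36 for TRIM27 and 1.37 for TRIM32, a ligase mutated in a human muscular dystrophy. The ratio was 1.74 for TRIM28, and 12.9 for TRIM31, whose counts were few. For TRIM21 it was 8.05.

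The 15 untested rows include all 4 members known from striated muscle. TRIM55 had 63 counts over the 9 libraries, TRIM63, the muscle atrophy ligase MuRF1, had 14, TRIM54 had 2 and TRIM72 had 1. Skeletal muscle markers summed to 11.6 to 80.7 CPM in the 9 libraries, with MYL1 at 0. TRIM17 had 39 counts, TRIM29 had 16, TRIM10 had 13, TRIM67 had 8, TRIM15 had 4 and TRIM40 had 1. TRIM42, TRIM50, TRIM58 and TRIM71 had none in any library, which allows up to 0.0333 CPM over the 9 libraries together (3 counts of 89995209, counting error only). TRIM40, TRIM54, TRIM69 and TRIM72 had counts in at most 2 libraries and were not measured.

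The rule by symbol leaves aside rows that the table describes as TRIM proteins but lists under other names; these were added after the values were seen. There were 29, of which 13 were at 0 in all libraries and 9 could be tested. On day 16 over day 6, 5 of the 9 rose and none fell, and on day 19 over day 6, 7 rose (6 without replicate 1 of day 19) and none fell, beside 5.12% and 12.7% of all genes. Of the 9, 6 are described as TRIM5, a restriction factor that binds incoming retroviral capsids, and 4 of these rose on day 16 and 5 on day 19. LOC102180213, among the 4, had 9, 5 and 7 counts on day 6 and entered the test through the later days. LOC102173185, with 28, 7 and 15 counts on day 6, also needed later libraries to enter. Of 18 alternatives, the day 19 call passed in 7 for LOC102189637 (described as TRIM39, 1.49-fold), 9 for LOC102173185 and 15 for LOC102179935. The day 16 call of LOC102179935 passed in 13. The remaining calls passed in all 18. LOC102169889, described as TRIM5-like, had 5.57, 3.71 and 3.90 CPM on day 6, 108, 148 and 50.2 CPM on day 16 and 167, 38.0 and 34.3 CPM on day 19. All later libraries were above day 6, and replicate 1 was the highest on day 19. It was 23.1-fold higher on day 16 than on day 6 (log2 4.53, SE 0.71, edgeR adjusted p = 0.00406) and 18.1-fold higher on day 19, or 8.25-fold without that library.

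LOC102170446, described as TRIM34, an interferon-induced relative of TRIM5, had 9.004, 7.10 and 4.68 CPM on day 6, 55.7, 94.0 and 29.1 CPM on day 16 and 84.3, 39.4 and 38.4 CPM on day 19. Its later libraries were all above day 6. It was 8.57-fold higher on day 16 (log2 3.10, SE 0.50, edgeR adjusted p = 0.00471) and 7.79-fold higher on day 19, or 5.64-fold without replicate 1 of day 19. LOC102170165, described as TRIM5 alpha, was 9.87-fold higher on day 16 and 10.6-fold higher on day 19 (5.64-fold without that library), relative to day 6. In the RefSeq goat gene table these 3 rows, LOC102179935 (also TRIM5-like) and TRIM6 lie within 7 consecutive coding genes of chromosome 15. TRIM6, the member of that neighbourhood under its own symbol, did not pass in any comparison. Near-identical copies can share reads, and how the authors' counting treated such reads is not given in the sources used here, so the TRIM5-described values are uncertain one by one.

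**Figure D4:**
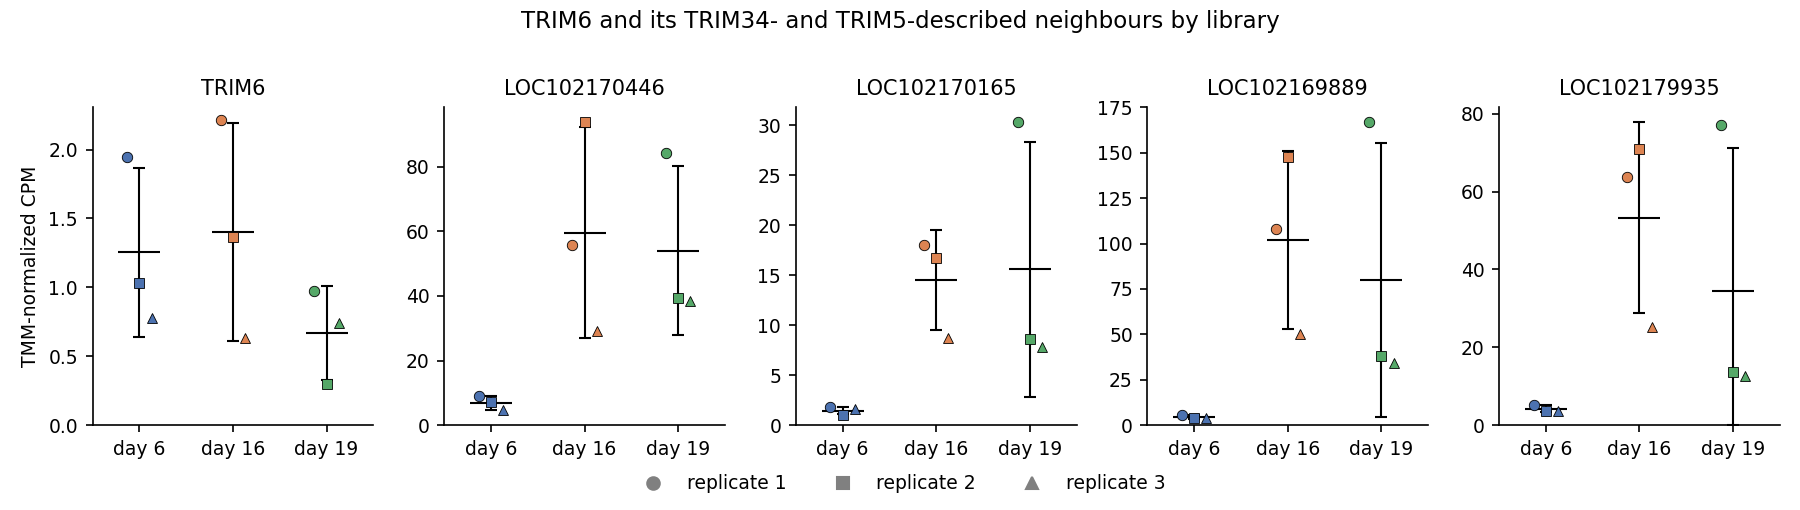
TMM-normalized CPM (linear axes from 0) by day for TRIM6 and the 4 neighbouring rows described as TRIM34 (LOC102170446), TRIM5 alpha (LOC102170165) and TRIM5-like (LOC102169889, LOC102179935). Points are libraries, marked by replicate number, with the mean and SD of the 3 libraries of a day (bars are cut at 0); in the 4 neighbours all day 6 points lie below all later points, and in TRIM6 the days overlap.

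Partners and substrates of TRIM ligases in RNA sensing and interferon signalling were followed as a list of 31 genes, 29 of them tested. On day 16 over day 6, 6 rose and none fell, and on day 19 over day 6, 8 rose and none fell, beside 5.12% and 12.7% of all genes that rose. Both sensors that TRIM25 and TRIM65 modify were among them. RIG-I, listed as DDX58, was 27.7-fold higher on day 16 and 27.0-fold on day 19 (edgeR adjusted p = 0.0126 and 0.00717), the second 6.97-fold without replicate 1 of day 19. MDA5, listed as IFIH1, was 11.5-fold and 11.2-fold higher (edgeR adjusted p = 0.0027 and 0.00168), the second 7.24-fold without that library. The transcription factors IRF3 and IRF7 rose on day 16 (2.90-fold and 22.1-fold), as did the kinase gene IKBKE (2.28-fold) and the autophagy receptor SQSTM1 (1.68-fold). DDX58, IFIH1 and IRF7 also belong to the interferon-stimulated list above, so their rises are counted in both lists. On day 19 the list of 8 added IRF5 (3.48-fold, 3.27-fold without replicate 1 of day 19) and the NF-kB subunit RELA (1.60-fold, 1.64-fold without it).

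MAVS, the mitochondrial adaptor below both sensors, averaged 77.6 ± 2.25 CPM on day 16 against 81.0 ± 5.28 CPM on day 6 (SD, n = 3 each, edgeR adjusted p = 0.908). Without replicate 1 of day 19 it was lower on day 19 than on day 6 (0.80-fold, edgeR adjusted p = 0.0286). ZC3HAV1, which encodes ZAP, averaged 218 ± 23.1 CPM on day 16 against 107 ± 5.93 CPM on day 6 (edgeR adjusted p = 0.0883). Without replicate 1 of day 19 that difference was 2.04-fold and passed (edgeR adjusted p = 0.000314). Without replicate 1 of day 19 the same list gave 11 higher and none lower on day 16 over day 6, and 10 higher and 5 lower on day 19 over day 6, where 10.7% and 9.67% of all genes on day 16, and 27.2% and 27.0% on day 19, were higher and lower. The 5 lower were MAVS, TRAF3, TAB2, TAB3 and MAP3K7.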

How the data were processed

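Whole-number read counts per gene were deposited by the authors as a single table of 9 libraries, 3 per day. Per the labels' protocols, poly(A) RNA was bead-purified, cut with RNase III and sequenced on an Ion Proton; aligner, counting tool, genome build, annotation and strand use are not stated by the labels. From these counts, genes passing filterByExpr by day (16098 of 25671) were fitted in edgeR 4.0.16 (R 4.3.3; TMM, robust quasi-likelihood, day as the only term, all 9 libraries), with Benjamini-Hochberg adjustment over all tested genes and a threshold of 0.05; the common biological coefficient of variation was 0.318. DESeq2 1.42.0 and limma 3.58.1 (voom with sample weights) were alternatives. Depth was 8712751 to 11074693 counts per library. Only the edgeR fit was tested on simulated data, which held known changes and no outlying library. The DESeq2 and voom fits were not tested in that way. Values are named for every member called in a pairwise comparison, every tested antiviral member, the 5 members with the highest mean CPM, the member with the smallest p in each other role group and, as context, IRF9, ISG15 and MX1 (another context gene is not reported here); others named were chosen after their values were seen. The members, role groups and lists were chosen with earlier results of these data known. RefSeq goat gene names and gene order came from a reference table; no sequences were used here.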

Additional observations from a re-analysis of the deposited data

How the results depend on the processing

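Under limma voom with sample weights, 11 members passed on day 16 over day 6, 12 on day 19 over day 16, 19 on day 19 over day 6 and 22 for any difference among days, while the calls over all genes went to 3811, 7354 and 9433 in the 3 comparisons, against 1427, 193 and 3684 with edgeR. Fitting only the days compared gave 10 members on day 16 over day 6, and DESeq2 gave 2 on day 19 over day 16. Shares over all genes are not given here for these fits, so the counts are no result about the family. The cause was not tested. Leaving out each library in turn gave 1 to 10 members on day 16 over day 6, 0 to 12 on day 19 over day 16, 5 to 18 on day 19 over day 6 and 3 to 21 for any difference. The highest count of each came without replicate 1 of day 19, where 20.4%, 44.7%, 54.2% and 59.1% of all genes were called. For same-numbered libraries of different days, the correlations of their deviations ran from -0.177 to 0.158, and 1 of 9 was over 0.1. A library correlated best with its own number in 4 of 18 cases. No pairing by number was seen, but these few correlations cannot exclude shared animals or runs. With the replicate number as a block, 3 members passed on day 16 over day 6 (TRIM21, TRIM37 and TRIM38), 0 on day 19 over day 16 and 8 on day 19 over day 6. The share of all genes called with that block is not given here. TRIM56 on day 19 over day 6, 0.21 on the log2 scale with edgeR, was -1.30 with voom and -0.17 with the replicate block, and ranged from -1.30 to 0.66 over the fits that each left out 1 library. The 14 called fold changes kept their direction in all 252 refits and passed in 221. Scaling by RLE or upper quartile moved the median of all genes by at most 0.07 (log2) and left 4 higher and 2 lower on day 16 and 5 higher and 3 lower on day 19, relative to day 6. Depth limits the low members: TRIM6 and TRIM31 had about 1 CPM.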

Other observations

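Relatives of the family under other symbols were followed as a list of 12 genes, 9 of them tested, and 1, PML, rose on day 16 over day 6, where 5.12% of all genes did. PML, also known as TRIM19, organizes nuclear bodies and is switched on by interferon in human cells. It also belongs to the interferon-stimulated list above and is counted there. It had 55.04, 54.2 and 51.5 CPM on day 6, 389, 603 and 248 CPM on day 16 and 847, 476 and 552 CPM on day 19, so every later library was far above day 6. It was 7.71-fold higher on day 16 than on day 6 (SE 0.35 on the log2 scale, edgeR adjusted p = 0.00102) and 11.7-fold higher on day 19, or 9.68-fold without replicate 1 of day 19. RNF207, a ligase studied in heart, had 100, 45 and 94 counts on day 6, 5, 5 and 1 on day 16 and 4, 5 and 0 on day 19; it entered the test only through day 6, so its later counts are given with no test. MID1 and MID2, microtubule-bound ligases, did not pass in either comparison with day 6 when all 9 libraries were used. Both were lower on day 19 than on day 6 without replicate 1 of day 19, with log2 differences of -2.13 and -2.18 (edgeR adjusted p = 2.02e-05 and 0.000137). On day 19 over day 6, BSPRY rose 1.91-fold (edgeR adjusted p = 0.0397 with all libraries), and 2.25-fold without that library. FSD1 had 53, 28 and 26 counts on day 6, 20, 10 and 21 on day 16 and 3, 3 and 4 on day 19. It entered the test through the earlier days, so its counts are given with no test.

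LOC102173185, described as TRIM5-like, had 2.60, 0.721 and 1.46 CPM on day 6, 0.211, 12.6 and 11.8 CPM on day 16 and 29.5, 12.3 and 10.9 CPM on day 19. Replicate 1 of day 16 held 2 counts, against 111 and 131 in the other day 16 libraries. Day 19 over day 6 was 10.9-fold (edgeR adjusted p = 0.0377), which passed in 9 of 18 alternatives. Without replicate 1 of day 19 it was 7.21-fold (edgeR adjusted p = 0.0579). With 28, 7 and 15 counts on day 6, the row needed later libraries to enter the test. The pass is therefore not taken as evidence of a rise.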
